A study of Ciona robusta with 6 samples.

Results

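The comparison described here is that of *Neurog* overexpression with its lacZ control in cells of the bipolar tail neuron (BTN) lineage of *Ciona robusta*, a tunicate. It uses 4 of the 6 libraries of the series, and its members are the 11977 of 15232 gene models that exceeded 1 CPM (counts relative to the library total) in at least 2 of those 4 libraries. Embryos were electroporated with plasmids in which *Neurog[BTN]* regulatory DNA drives a fluorescent reporter together with either wild-type *Neurog* (*Neurog* > *Neurog*, 2 libraries) or the bacterial gene *lacZ* (*Neurog* > *lacZ*, 2 libraries). Labeled cells were sorted at 9.5 hpf and 20°C from both groups, which share the stage. The paper gives tagRFP/tagBFP as the reporter in both, without saying which library had which. In the plasmid for wild-type *Neurog* the driver carried an inserted stop codon, which that for *lacZ* lacked. No change to the genome of these embryos is described. A further group of 2 libraries, *Neurog* > *Neurog:WRPW*, carries Neurog fused to a repressor motif and entered only the estimate of the spread. Electroporated DNA is taken up by some cells and not by others, the gate used no counterselection against cells of other tissues in which the driver is active, and lacZ replicate 2 and Neurog replicate 1 were each made from fewer cells than their partners.

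Neurogenin is a basic helix-loop-helix transcription factor that turns dividing progenitors into neurons in many animals. In *Ciona*, BTNs are born beside the neural tube, leave the epithelium, migrate along the tail and grow a process in each direction, and they are often compared with the dorsal root ganglion neurons of vertebrates. Epidermal fate is the usual one in the sorted lineage, and BTNs are the exception there unless Neurog is supplied. The question put to the 4 libraries is which functions are gained and which are lost when cells of this lineage carry Neurog.

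The genes that rose under Neurog included genes of the vesicle release machinery (20 of 24 named members) and of G protein and cyclic nucleotide signaling (19 of 26). Neuropeptides and their processing enzymes (6 of 9) and genes of adhesion and axon guidance (19 of 30) rose as well. So did genes of calcium sensing (10 of 17) and of ion channels that are not gated by transmitter (17 of 31). These members were named by a table of genes with a high fold in this same comparison, of which 42.2% rose, and most of the counts were much smaller without lacZ replicate 2 or Neurog replicate 1, for vesicle release 6 and 5. Counting the transmitter-gated channels too, 96 genes of these 7 function lists rose, 75 of them by 2 to 8 times, 10 by less and 11 by more. In all, 534 genes rose and 219 fell. A gene that rose has a LogFC (the log2 of the ratio of Neurog to lacZ) over 0.6 with an unadjusted p under 0.05 in the quasi-likelihood test of edgeR, and a gene that fell has a LogFC under -0.6 with the same p. These are 4.46% and 1.83% of the genes tested. The median LogFC of those that rose was 1.57 and of those that fell -1.08, beside -0.03 over all genes tested.

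No single gene passed an adjusted p of 0.05 by this test, the smallest being 0.141 for *Neurog*, and 766 genes (6.40%) had an unadjusted p under 0.05 in either direction, so the calls are those of the unadjusted p, and the adjusted p beside each gene below is over all 11977 genes. At an adjusted p under 0.05, the exact test of edgeR gave 139 genes higher and 19 lower, and DESeq2 gave 185 and 28. The number that rose was 231 without lacZ replicate 2 and 290 without Neurog replicate 1, and the number that fell was 97 without lacZ replicate 1 and 112 without Neurog replicate 1. The call held with each of the 6 libraries left out in turn for 162 of the 534 genes and for 24 of the 219.

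**Figure D1:**
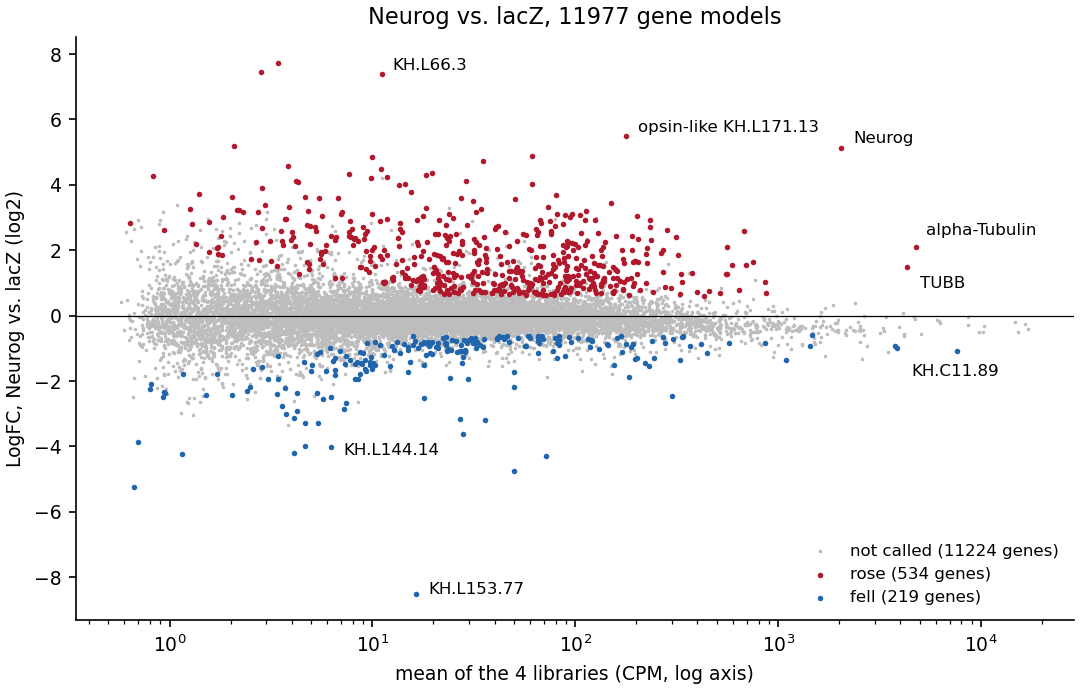
LogFC of Neurog vs. lacZ on the log2 scale (vertical axis) against the mean of the 4 libraries in CPM (horizontal log axis) for the 11977 gene models tested, with 1 point per gene, red for the 534 genes that rose, blue for the 219 that fell and grey for the rest. *Neurog*, *alpha-Tubulin* and *TUBB* stand at the abundant end of the genes that rose, and KH.C11.89 is the most abundant gene that fell.

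The CPM printed for single genes are, in addition, scaled by TMM, a factor per library that balances the bulk of genes. Library totals ranged from 15810101 to 24499397 counts in the 4 libraries, and replicates differed by a median of 0.32 (lacZ) and 0.35 (Neurog) on the log2 scale over the 7970 genes with a mean over 8 CPM. Over all genes tested the SE of the LogFC had a median of 0.41. Of the genes tested, 10641 were over 1 CPM in all 4 libraries. Another 115 passed the filter through both Neurog libraries with neither lacZ library over it, which fixes the sign of their difference. Of these, 30 are among the genes that rose. The sign is fixed likewise for 63 that passed through both lacZ libraries with neither Neurog library over it, 14 of which fell.

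*Neurog* itself (KH.C6.129) stood at 90.2 and 134 CPM in lacZ replicates 1 and 2, and at 3931 and 3962 CPM in Neurog replicates 1 and 2. The groups are far apart, with a LogFC of 5.14 (SE 0.41, adjusted p = 0.141), and the library labels hold for the targeted gene. Reads of the electroporated plasmid and of the chromosomal gene are counted together in it. Of the other BTN markers, *alpha-Tubulin* (KH.C8.892), *Onecut* (KH.C6.185), *Rgs19/20* (KH.C1.314) and the acid-sensing channel gene *Asic* (KH.C1.215) rose. *Ebf* (KH.L24.10), which encodes a factor of neuronal differentiation, was at 44.1 and 31.5 CPM in lacZ and 156 and 224 CPM in Neurog, with a LogFC of 2.33 that did not pass (SE 1.23, adjusted p = 0.869). Its groups did not overlap, and it passed when either Neurog:WRPW library was left out, with the same LogFC of 2.33, so the missing call rests on the spread of libraries outside the comparison. In the lacZ libraries all of these markers were present, and the control lineage also forms BTNs.

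Names and human hits of the gene models were taken from the supplementary tables of the study. The longer of these tables is available here only in its first 1118 rows, which are those with the highest fold change in this same comparison, so every one of the 1113 that were tested has a LogFC above 0. Of the 534 genes that rose, 471 are in the tables, while none of the 219 that fell is. A human hit is given for 398 of the genes that rose, out of 865 tested genes with such a hit (46.0%), and 114 rose among the 11054 genes with no name (1.03%). Functions could therefore be read for genes that rose, whereas genes that fell are given by identifier. The human hits of a gene stand in alphabetical order, so a human name given to a model below is not a ranked best match. Because being in the longer table already selects for a high fold, the share of its tested genes that rose, 42.2%, is the background for the function counts below, and the counts are a description without a test. This background is not matched for expression level. Over all genes tested, 1.87% rose in the lowest quartile of mean expression and 7.78% in the highest, so shares of lists at unlike levels are not directly comparable. The 20 function lists hold 337 gene models, all of them tested, of which 176 rose; none could have fallen, since no gene that fell has a name.

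**Figure D2:**
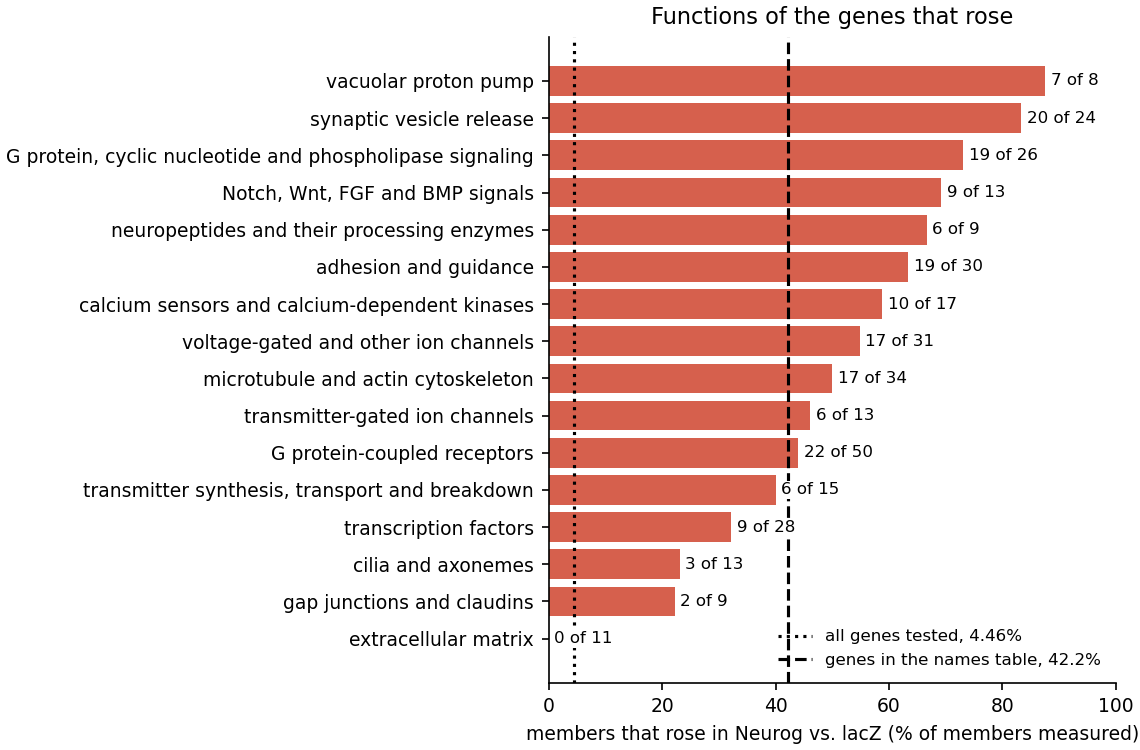
Share of the measured members of each function list that rose in Neurog vs. lacZ, in percent, for the 16 lists with at least 8 members, with the count beside each bar. The dotted line marks the 4.46% of all genes tested and the dashed line the 42.2% of genes in the names table; vacuolar proton pump and synaptic vesicle release stand highest, at 87.5% and 83.3%, and no extracellular matrix gene rose.

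Synaptic vesicle release was the function with the highest share among the larger lists. Of its 24 members, 20 (83.3%) rose, and the median LogFC of the list was 1.45. They span the fusion machinery from end to end: the SNARE proteins that pull vesicle and plasma membrane together, the complexin and synaptotagmin proteins that hold and trigger them, the Rab3 GTPase of the vesicle, the active zone scaffolds, and the ATPase NSF with its SNAP adaptors, which takes spent SNARE complexes apart. Their LogFC ran from 0.79 for *NAPA* (KH.L50.10), a SNAP adaptor gene, to 2.76 for *Bassoon-like* (KH.C5.481), with the target SNARE gene *STX1A* (KH.L108.15) at 1.73 and *RAB3A* (KH.C8.400) at 1.54. Summed over the list, expression went from 2199 and 1537 CPM in lacZ replicates 1 and 2 to 6494 and 3515 CPM in Neurog, a ratio of 2.95 in replicates 1 and 2.29 in replicates 2.

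The vesicle SNARE gene KH.C1.165, whose human hits are *VAMP1*, *VAMP2* and *VAMP3*, stood at 233 and 202 CPM in lacZ and at 576 and 499 CPM in Neurog (LogFC 1.306, SE 0.24, adjusted p = 0.304). Complexin *Cplx2* (KH.C8.717) was at 30.5 and 10.4 CPM in lacZ against 155 and 121 CPM in Neurog (LogFC 2.75, SE 0.58, adjusted p = 0.402). *Syt7-related* (KH.C4.304), a synaptotagmin, went from 12.2 and 6.66 CPM to 53.3 and 37.9 CPM (LogFC 2.28, SE 0.40, adjusted p = 0.285). In all 3 the groups were clear of each other by more than the gap between replicates, and the calls held with each library left out. *Bassoon-like* (KH.C5.481), of the active zone scaffold family, was at 14.9 and 6.53 CPM in lacZ and at 100.3 and 44.3 CPM in Neurog (LogFC 2.76, SE 0.86, adjusted p = 0.576), and lost its call without lacZ replicate 2 (LogFC 2.28) or Neurog replicate 1 (2.10). In *NSF* (KH.C9.401), chosen after its values were seen, the levels were 236 and 205 CPM in lacZ and 630 and 269 CPM in Neurog, so that Neurog replicate 2 lay close to lacZ. The list count was 6 without lacZ replicate 2 and 5 without Neurog replicate 1.

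The vacuolar proton pump acidifies vesicles so that they can be loaded with transmitter, and is also part of lysosomes in every cell. Of its 8 members 7 (87.5%) rose, by small steps: the median LogFC was 0.80, the smallest of the lists with at least 8 members. KH.C5.98, like the accessory subunit gene *ATP6AP1*, was at 133 and 115 CPM in lacZ and 231 and 205 CPM in Neurog (LogFC 0.81, SE 0.23, adjusted p = 0.539). The membrane subunit gene KH.C3.622 (*ATP6V0D1*) went from 71.8 and 61.7 CPM to 126 and 106 CPM (LogFC 0.80, SE 0.23, adjusted p = 0.541), and KH.L9.10 (*ATP6V1C1*) from 75.4 and 66.1 CPM to 124 and 113 CPM (LogFC 0.74, SE 0.22, adjusted p = 0.552). Both Neurog libraries were above both lacZ libraries in all 8 members, which was so for 79.3% of the genes in the names table and 18.7% of all genes tested. These calls rested on single libraries, and 0 of the 8 passed without lacZ replicate 2 and 2 without Neurog replicate 1.

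G protein, cyclic nucleotide and phospholipase signaling carries the signal of a surface receptor into the cell. Of its 26 members, 19 (73.1%) rose, with a median LogFC of 1.30. The phosphodiesterase gene *Pde11-related* (KH.L18.65), whose product breaks down cyclic nucleotides, stood at 55.3 and 31.3 CPM in lacZ and 417 and 298 CPM in Neurog (LogFC 3.05, SE 0.44, adjusted p = 0.209). *Gng* (KH.L170.96), a G protein gamma subunit gene, was at 28.3 and 16.2 CPM against 158 and 102 CPM (LogFC 2.55, SE 0.57, adjusted p = 0.418). A protein kinase C gene, KH.C10.311 (*PRKCD*), went from 32.4 and 27.4 CPM to 91.4 and 62.8 CPM (LogFC 1.37, SE 0.27, adjusted p = 0.390). These 3 genes held their calls with each library left out. All 26 members, called or not, were higher in both Neurog libraries, beside the 79.3% of genes in the names table.

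Both sides of cyclic GMP turnover are in that list. *Gucy1b1* (KH.C2.674), a subunit gene of the guanylate cyclase that senses nitric oxide, was chosen after its values were seen. It was at 41.7 and 8.23 CPM in lacZ and 313 and 235 CPM in Neurog (LogFC 3.46, SE 0.97, adjusted p = 0.539). KH.C8.688, like *GUCY1A1* of the same cyclase family, did not pass, at 26.9 and 10.3 CPM against 60.7 and 30.3 CPM (LogFC 1.29, SE 0.78, adjusted p = 0.900). *Rgs19/20* (KH.C1.314), which speeds the shut-off of G alpha subunits, was at 82.9 and 52.9 CPM in lacZ and 366 and 181 CPM in Neurog (LogFC 2.01, SE 0.61, adjusted p = 0.557), and did not pass without lacZ replicate 2 (LogFC 1.72) or Neurog replicate 1 (1.47). The list count was 8 without lacZ replicate 2 and 12 without Neurog replicate 1.

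The alpha subunits of the inhibitory G proteins were among these genes. KH.C1.612, one of the Gαi/o subunit genes of *Ciona*, has no name in the tables and so is in no list. It was at 748 and 590 CPM in lacZ and 1257 and 892 CPM in Neurog (LogFC 0.68, SE 0.28, adjusted p = 0.761), and it lost its call in 5 of the 6 fits with 1 library left out, all but that without Neurog replicate 2 (0.46 to 0.89 on the log2 scale). Its paralogs *Gnai-related* (KH.C2.872) and KH.L96.27, which the list holds, rose with LogFC of 1.95 and 1.37. Reads of such related copies may be shared.

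The receptors that feed this signaling rose at a share near that of the names table. Of 50 members of the list of G protein-coupled receptors, 22 (44.0%) rose, and the median LogFC was 1.55. The name rule also put KH.C4.602, like the lipoprotein receptor gene *LRP1B*, and KH.L41.7, like *ARMCX4*, in this list, and neither passed. An opsin-like gene, KH.L171.13 (*OPN1LW*), had the largest LogFC of the named genes: it was at 12.7 and 2.80 CPM in lacZ and at 370 and 325 CPM in Neurog (LogFC 5.49, SE 1.20, adjusted p = 0.409). KH.C10.464, named after the histamine receptor *HRH1*, was at 24.0 and 21.9 CPM in lacZ and 152 and 105 CPM in Neurog (LogFC 2.49, SE 0.28, adjusted p = 0.181). For *Gpr22* (KH.L139.24), an orphan receptor, the levels were 12.8 and 7.75 CPM against 57.8 and 47.7 CPM (LogFC 2.36, SE 0.36, adjusted p = 0.209). All 3 kept their calls with each library left out, while the list count was 11 without lacZ replicate 2 and 11 without Neurog replicate 1.

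Peptide messengers and their processing enzymes were a small list of 9 members, of which 6 (66.7%) rose, with a median LogFC of 2.33. KH.C1.731, like the endothelin-converting metalloprotease gene *ECE1*, was at 24.5 and 12.8 CPM in lacZ and 170 and 148 CPM in Neurog (LogFC 3.09, SE 0.37, adjusted p = 0.204). The *Galanin* model (KH.S618.6) was nearly silent in the control, at 0.946 and 0.394 CPM, and at 5.11 and 33.6 CPM in Neurog, so its Neurog replicates differed from each other by more than its lower Neurog library did from lacZ in CPM (LogFC 4.85, SE 1.03, adjusted p = 0.402, and 2.93 without Neurog replicate 2). *LF* (KH.C10.27), a tunicate peptide precursor, was at 12.02 and 13.2 CPM against 32.9 and 43.5 CPM (LogFC 1.60, SE 0.35, adjusted p = 0.409). The carboxypeptidase gene *Cpe* (KH.C12.16), which trims peptide hormones and was chosen after its values were seen, also rose, from 57.6 and 19.0 CPM to 319.8 and 121 CPM.

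Among small transmitters the picture was uneven. Of 15 genes of transmitter synthesis, transport and breakdown 6 (40.0%) rose, a share at that of the names table, and 4 of the 6 are like transporters that clear GABA and related molecules. Of these, *Slc6a11/12/13* (KH.L167.5) went from 146 and 244 CPM to 409 and 527 CPM (LogFC 1.26, SE 0.33, adjusted p = 0.519).

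The enzyme gene *GAD* (KH.S761.6), which makes GABA and marks the anterior BTN, was at 92.4 and 31.0 CPM in lacZ and at 682 and 130 CPM in Neurog. The control and Neurog ranges of *GAD* did not overlap, but Neurog replicate 2 lay nearer to lacZ replicate 1 than to its own partner (LogFC 2.72, SE 0.93, adjusted p = 0.621), and the LogFC was 2.13 without lacZ replicate 2 and 1.12 without Neurog replicate 1, past the threshold in neither. *Slc32a1* (KH.C2.526), like the vesicular GABA transporter, did not pass, at 6.62 and 0.350 CPM in lacZ and 40.6 and 2.01 CPM in Neurog, where the groups overlap (LogFC 2.62, SE 1.87, adjusted p = 0.939, and -0.73 without Neurog replicate 1). The cholinergic gene *Slc18a3* (KH.C1.498), a marker of the posterior BTN, did not pass either, at 30.0 and 5.91 CPM against 167 and 114 CPM (LogFC 2.97, SE 1.54, adjusted p = 0.862), although its groups did not overlap, and it passed at the same LogFC when either Neurog:WRPW library was left out. The human hits of KH.C1.498 are *CHAT*, *CPT2* and *CRAT* and do not include *SLC18A3*. The list count of transmitter genes was 2 without lacZ replicate 2 and 2 without Neurog replicate 1.

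Calcium sensors and calcium-dependent kinases rose in 10 of 17 members (58.8%), with a median LogFC of 1.72. The neuronal calcium sensor family led: KH.C7.343 (*HPCAL1*) was at 1.28 and 0.744 CPM in lacZ and at 17.0 and 20.2 CPM in Neurog (LogFC 4.20, SE 0.76, adjusted p = 0.304), and a second *HPCAL1*-like model, KH.C7.272, went from 3.23 and 0.394 CPM to 45.7 and 24.5 CPM (LogFC 4.29, SE 1.04, adjusted p = 0.463). As related copies, these models may share reads. The plasma membrane calcium pump gene KH.C8.156 (*ATP2B1*), which exports calcium after a signal, stood at 270 and 153 CPM in lacZ and 1173 and 651 CPM in Neurog (LogFC 2.11, SE 0.44, adjusted p = 0.395). The list count was 4 without lacZ replicate 2 and 5 without Neurog replicate 1.

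Ion channels outside the transmitter-gated families rose in 17 of 31 members (54.8%) including auxiliary subunits, with a median LogFC of 1.81. KH.C2.249 (*CNGA1*), a channel opened by cyclic nucleotides, was at 33.2 and 18.3 CPM in lacZ and at 96.3 and 128 CPM in Neurog (LogFC 2.12, SE 0.36, adjusted p = 0.274). The 2-pore potassium channel gene KH.L9.36 (*KCNK15*) went from 9.18 and 3.63 CPM to 33.6 and 27.6 CPM (LogFC 2.26, SE 0.51, adjusted p = 0.424). KH.S346.10, a voltage-gated potassium channel gene like *KCNQ1*, was at 8.51 and 4.07 CPM against 48.8 and 22.8 CPM (LogFC 2.51, SE 0.67, adjusted p = 0.538, and 2.07 without lacZ replicate 2 and 1.91 without Neurog replicate 1, past the threshold in neither).

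*Asic* (KH.C1.215), the BTN marker and an acid-sensing sodium channel gene, stood at 73.7 and 44.7 CPM in lacZ and at 450.1 and 189 CPM in Neurog. Both Neurog libraries were clear of the control, but in CPM they differed from each other by more than the lower of them did from lacZ (LogFC 2.43, SE 0.96, adjusted p = 0.740), and the call was lost without lacZ replicate 1 (LogFC 2.86), without lacZ replicate 2 (2.12) and without Neurog replicate 1 (1.73). The channel count was 3 without lacZ replicate 2 and 8 without Neurog replicate 1.

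Channels opened by a transmitter rose in 6 of 13 members (46.2%), a share near the 42.2% of the names table, with a median LogFC of 1.98, and summed to 171 and 42.5 CPM in lacZ and 636 and 219 CPM in Neurog. *Gabrd* (KH.C1.1254), of the family of chloride channels opened by GABA or glycine, was at 32.3 and 11.7 CPM in lacZ and at 217 and 87.4 CPM in Neurog (LogFC 2.79, SE 0.65, adjusted p = 0.446). KH.C14.139, like *GABRB1*, went from 4.12 and 2.63 CPM to 34.6 and 13.3 CPM (LogFC 2.83, SE 0.70, adjusted p = 0.473), and the glutamate receptor subunit gene KH.C9.353 (*GRIN2A*) from 2.503 and 0.438 CPM to 11.1 and 13.9 CPM (LogFC 3.10, SE 0.90, adjusted p = 0.541). One of the 13, KH.C3.449, is like the formin gene *DAAM1* and no channel, and it did not pass. Receptors of both inhibitory and excitatory transmitters are among the genes that rose, and the count was 3 without lacZ replicate 2 and 3 without Neurog replicate 1.

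Adhesion and guidance genes rose in 19 of 30 members (63.3%), with a median LogFC of 1.52. By the name rule, the 19 include KH.C2.287, which the muscle list also holds, and KH.C3.390. Both have *IGSF22* and the muscle gene *TTN* among their hits. *Sema6* (KH.C4.719), a membrane-bound semaphorin that guides axons and migrating cells, was at 99.7 and 57.8 CPM in lacZ and at 553 and 423 CPM in Neurog (LogFC 2.63, SE 0.63, adjusted p = 0.463). The protocadherin-like gene KH.C9.518 (*PCDHA3*) went from 13.3 and 11.1 CPM to 44.7 and 65.3 CPM (LogFC 2.18, SE 0.34, adjusted p = 0.209). An immunoglobulin-domain gene, KH.C4.248 (*F11R*, with *KIRREL3* among its hits), was at 2.78 and 4.90 CPM against 32.4 and 26.4 CPM (LogFC 2.93, SE 0.49, adjusted p = 0.274). Without lacZ replicate 2 the count was 8, and without Neurog replicate 1 it was 9.

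Signals of the Notch, Wnt, FGF and BMP pathways, with their modulators, rose in 9 of 13 members (69.2%), and their median LogFC was 1.98. Among the 9 is KH.C8.359, whose hits are the Hedgehog genes *DHH*, *IHH* and *SHH*, of none of these pathways. *Fgf20* (KH.C14.70), which encodes a ligand of the FGF pathway, was at 2.503 and 4.20 CPM in lacZ and 43.3 and 23.3 CPM in Neurog (LogFC 3.30, SE 0.47, adjusted p = 0.204). KH.L6.1 (*LFNG*), like the Fringe enzymes that modify Notch, went from 6.40 and 5.96 CPM to 33.2 and 21.9 CPM (LogFC 2.16, SE 0.37, adjusted p = 0.274). A dual-specificity phosphatase gene, KH.L90.5 (*DUSP15*), was at 11.3 and 9.20 CPM against 38.6 and 28.9 CPM (LogFC 1.72, SE 0.30, adjusted p = 0.275). The list kept a count of at least 7 with each library left out, and 7 of the 9 genes held their call in every such fit.

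**Figure D3:**
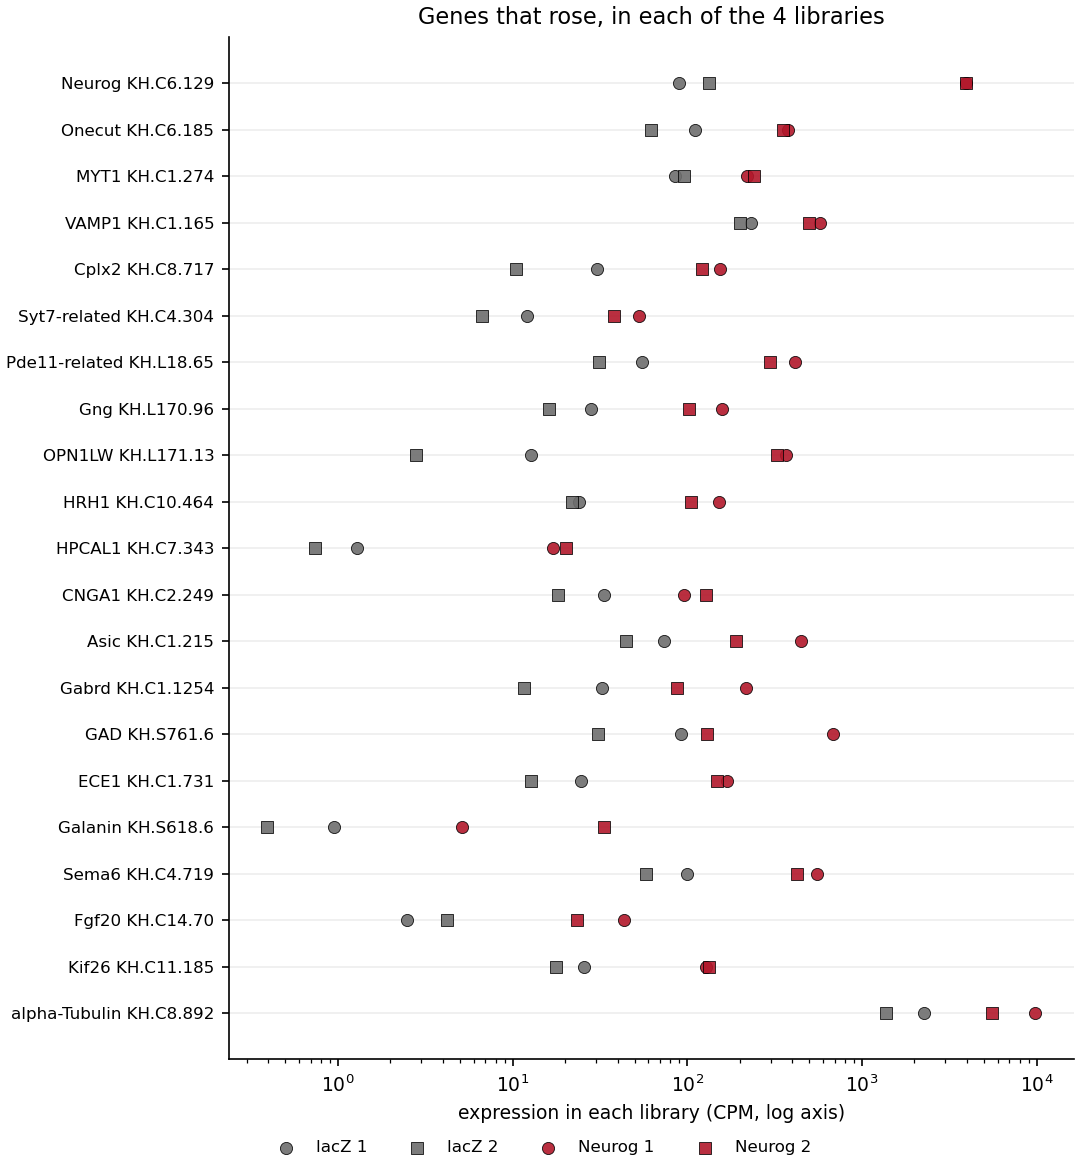
Expression in CPM (log axis) of 21 genes that rose, with 1 row per gene, grey points for lacZ and red points for Neurog, circles for replicate 1 and squares for replicate 2. In each row both red points lie to the right of both grey points, and in *GAD* and *Galanin* the red points lie farther from each other than from the nearest grey point.

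The cytoskeleton carried the largest amount of RNA among the lists. Its 34 members summed to 7021 and 5240 CPM in lacZ and to 24639 and 13580 CPM in Neurog. Most of that sum came from *alpha-Tubulin* and *TUBB*, given below. Of the members, 17 (50.0%) rose, a share near the 42.2% of the names table. *Kif26* (KH.C11.185), a kinesin gene, had the smallest p of the list: it was at 25.6 and 17.6 CPM in lacZ and at 128 and 134 CPM in Neurog (LogFC 2.60, SE 0.29, adjusted p = 0.181). Its Neurog replicates differed by less than its lacZ replicates, and its LogFC stayed between 2.35 and 2.92 with any 1 library left out. Except for *Neurog*, it has the smallest p of all members of the lists, so the stretch of its transcript by which it can be recognized is shown: the first 300 of the 333 bases of the template that the study lists for its in situ hybridization probe, with no letters marked.
Kif26: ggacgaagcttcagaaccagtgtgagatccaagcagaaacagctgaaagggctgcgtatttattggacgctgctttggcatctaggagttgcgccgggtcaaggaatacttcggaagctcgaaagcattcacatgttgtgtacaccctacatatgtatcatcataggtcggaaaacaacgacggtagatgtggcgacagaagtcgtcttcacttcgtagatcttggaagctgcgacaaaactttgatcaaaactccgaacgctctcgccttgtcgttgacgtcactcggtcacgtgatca

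*Dpysl* (KH.C2.307), of the collapsin response mediator family that acts in growth cones, was at 6.51 and 3.46 CPM in lacZ and 44.1 and 41.1 CPM in Neurog (LogFC 3.10, SE 0.46, adjusted p = 0.209). *Brsk* (KH.C11.383), a kinase of axon specification in mouse, went from 70.1 and 61.1 CPM to 225 and 161 CPM (LogFC 1.56, SE 0.27, adjusted p = 0.274). The tubulins were among the most abundant genes that rose, with *alpha-Tubulin* (KH.C8.892) at 2255 and 1377 CPM in lacZ and 9848 and 5583 CPM in Neurog (LogFC 2.09, SE 0.41, adjusted p = 0.368) and *TUBB* (KH.L116.85) at 2630 and 1919 CPM against 8348 and 4414 CPM (LogFC 1.49, SE 0.38, adjusted p = 0.519). In both tubulins Neurog replicate 1 was well above replicate 2, as lacZ replicate 1 was above lacZ replicate 2. Reads of near-identical tubulin copies may be divided among models. The cytoskeleton count was 10 without lacZ replicate 2.

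Transcription factors rose in 9 of 28 members (32.1%), a share under that of the names table. *Neurog* itself, supplied on the plasmid and counted together with the chromosomal gene, is among the 9. *Onecut* (KH.C6.185), a homeobox factor of differentiating neurons, was at 111 and 62.4 CPM in lacZ and at 378 and 353 CPM in Neurog (LogFC 2.08, SE 0.46, adjusted p = 0.418). KH.C1.274 (*MYT1*), a zinc finger factor that represses non-neuronal genes in mouse, went from 85.2 and 95.3 CPM to 219 and 242 CPM (LogFC 1.36, SE 0.26, adjusted p = 0.335). In these factors, as in *Neurog*, the Neurog replicates lay close to each other. The count was 6 without lacZ replicate 2. It was 14 when either Neurog:WRPW library was left out, and these libraries enter only the estimate of the spread.

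Several functions were not prominent among the genes that rose. None of 11 extracellular matrix genes rose (median LogFC 1.306), and they summed to 362 and 148 CPM in lacZ and 829 and 447 CPM in Neurog; up to 4 of them passed when 1 library was left out, the highest number being without Neurog replicate 2. Of 13 genes of cilia and axonemes 3 (23.1%) rose, led by KH.C1.552 (*CCDC92*) at 30.6 and 24.2 CPM in lacZ and 90.7 and 58.0 CPM in Neurog (LogFC 1.44, SE 0.30, adjusted p = 0.395). KH.C5.62 (*ODF3*), with a LogFC of 1.64, lost its call without lacZ replicate 1 (LogFC 2.10), lacZ replicate 2 (1.29) or Neurog replicate 1 (0.55). The cilia count was 1 without lacZ replicate 1 or Neurog replicate 1 and 6 without either Neurog:WRPW library.

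Of 9 genes of gap junctions and claudins 2 (22.2%) rose. They were *Gjc1* (KH.C4.804), a gap junction gene at 28.8 and 17.4 CPM in lacZ and 134 and 56.5 CPM in Neurog (LogFC 2.05, SE 0.66, adjusted p = 0.590), and *Claudin-rel* (KH.S1269.1) at 13.9 and 7.40 CPM against 23.8 and 20.4 CPM (LogFC 1.05, SE 0.42, adjusted p = 0.741). Neither passed without lacZ replicate 2 (1.73 and 0.67) or Neurog replicate 1 (1.34 and 0.98), and the count was 5 without either Neurog:WRPW library. The remaining lists were too small to describe a function: cell cycle (2 of 4 rose, KH.C8.664 like *CDC14A* and KH.L150.1 like *CDC42*), mitochondrial respiration (2 of 2, KH.C1.381 like *METTL27* and *NDUFAF5*, and KH.C5.212 like *COX4I1*) and ribosomal proteins (0 of 1). These are housekeeping functions with most of their genes outside the rows of the names table used here, so their change over the genome was not analysed here.

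Cells of other tissues could be in the gate. The muscle list held 2 gene models, at a summed 22.0 and 24.09 CPM in lacZ and 54.2 and 41.3 CPM in Neurog, and both rose. They are KH.C2.287, whose hits are the immunoglobulin-domain genes *IGSF22*, *MYBPC3* and *TTN* (LogFC 0.87, and 0.73 and 0.65 without lacZ replicate 1 and Neurog replicate 1, past the threshold in neither), and KH.C1.285, a creatine kinase gene of which muscle and brain forms are among the hits (LogFC 1.35, which did not pass without any 1 of the lacZ and Neurog libraries, at 1.221 to 1.51). The myosin heavy chain gene *Myh-tun3* (KH.C3.774), a body wall muscle gene of the adult that the cytoskeleton list holds, also rose, from 13.96 and 7.88 CPM to 72.2 and 69.3 CPM (LogFC 2.70, SE 0.78, adjusted p = 0.541). By in situ hybridization the paper saw *Myh-tun3* in BTNs and other neural tissues too, so its rise is no sign of muscle cells by itself. No troponin, muscle actin or myosin light chain gene carried a name in the tables used here, and no list of epidermis markers could be made from those names, so the levels of defining markers of muscle and epidermis were not analysed here, and their part in the results was not tested. In these bulk samples, more cells of a type and more RNA per cell cannot be told apart for any gene named.

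Genes outside the lists made up most of the calls: 358 of the 534 genes that rose are in no list, 244 of them with a name and 114 without. The named genes with the largest LogFC include *Sord* (KH.L105.1), like the dehydrogenase genes *SORD* and *ADH5*, which was at 1.45 and 3.59 CPM in lacZ and 60.6 and 74.4 CPM in Neurog (LogFC 4.73, SE 0.49, adjusted p = 0.181), and KH.C1.236, a C-type lectin-like gene (*CD209*) at 0.389 and 0.219 CPM against 9.02 and 5.71 CPM (LogFC 4.58, SE 1.14, adjusted p = 0.473). *CELF3* (KH.C6.128), an RNA-binding protein gene of the neuronal splicing family, was the most abundant named gene that rose after *Neurog* and the tubulins, at 663 and 473 CPM in lacZ and 1286 and 1010 CPM in Neurog (LogFC 1.02, SE 0.33, adjusted p = 0.599, and 0.79 without lacZ replicate 2 and 0.88 without Neurog replicate 1, past the threshold in neither). The solute carrier gene *Slc35g2* (KH.L141.43) was at 21.2 and 12.1 CPM in lacZ and 150.3 and 36.5 CPM in Neurog (LogFC 2.49, SE 0.68, adjusted p = 0.538, and 2.14 and 1.18 without the same libraries, past the threshold in neither).

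Genes without a name in the tables included the steepest switches. KH.L66.3 had 5 counts in the lacZ libraries together and 799 in the Neurog libraries, or 0.167 and 0.0876 CPM against 16.8 and 27.4 CPM, a ratio of 180 with a counting interval of 76.7 to 555 (95%, exact). KH.C14.89 had 1 count in lacZ replicate 1 and none in lacZ replicate 2, where 3 counts would be 0.131 CPM, against 6.03 and 7.55 CPM in Neurog, a ratio of 277 with an interval of 49.2 to 10978. These intervals cover counting error only. Both genes passed the filter through the Neurog libraries alone, which fixes the sign of their difference.

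The genes that rose were mostly expressed in the control already. In its higher lacZ library, 33 of the 534 were at or under 1 CPM, 124 between 1 and 10, 314 between 10 and 100, 61 between 100 and 1000 and 2 above 1000 CPM. The median LogFC was smaller at higher control levels, from 3.23 in the first class to 1.07 in the fourth. It was 1.79 for the 2 genes above 1000 CPM. The classes are set by the lacZ level, which is also the denominator of the LogFC, so part of this pattern is built in. By mean expression over the 4 libraries, 1.87% of the lowest quartile of genes rose, then 2.97%, 5.21% and, in the highest quartile, 7.78%. The shares that fell were 1.07%, 1.94%, 2.20% and 2.10% in the same order. Summed expression of the 534 genes went from 29914 and 23393 CPM in lacZ to 92028 and 64046 CPM in Neurog, of which the 5 most abundant genes made up 24671 and 15861 CPM.

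The direction of the replicate differences was shared by the genes that rose. Neurog replicate 1 was above Neurog replicate 2 in 386 of the 534 (72.3%), beside 51.5% of all genes tested, and lacZ replicate 1 was above lacZ replicate 2 in 405 (75.8%), beside 50.8%. Among the 219 genes that fell, Neurog replicate 1 was above replicate 2 in 52 (23.7%) and lacZ replicate 1 above replicate 2 in 135 (61.6%). Neurog replicate 1 thus stood farther from the lacZ libraries than replicate 2 did, upward and downward, and it came from fewer cells than replicate 2. The part of the cell number in these differences was not tested.

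No function can be read from the 219 genes that fell, since none of them has a name in the sources used here. They were fewer than the genes that rose, and their steps were smaller: 119 of the 219 had a LogFC under -1 and 38 under -2, against 409 of the 534 over 1 and 191 over 2. All 219 were lower in both Neurog libraries than in both lacZ libraries, as were 17.8% of all genes tested. Their gene models were longer, with a median exon length of 2434 bases (quartiles 1824 and 3614), beside 1877 for the genes that rose and 1860 for all genes tested.

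A small number of abundant transcripts made up most of what fell. The 219 genes summed to 43616 and 42063 CPM in lacZ and to 18327 and 24239 CPM in Neurog, and 5 of them accounted for 23304 and 24856 CPM in lacZ and 10118 and 14256 CPM in Neurog. KH.C11.89 was the most abundant, at 10291 and 10379 CPM in lacZ and at 4326 and 5410 CPM in Neurog (LogFC -1.09, SE 0.24, adjusted p = 0.418). Its lacZ replicates lay within 1% of each other, and it held its call with each library left out, with a LogFC between -1.25 and -0.89.

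Abundant genes as a class were lower in Neurog on the TMM scale: of 113 genes with a mean over 1000 CPM, 101 had a LogFC under 0, the median was -0.41, and 6 of them passed as fallen. The other 4 abundant genes named here lay nearer to that median than KH.C11.89 did, and their calls rested on single libraries. KH.C13.116 went from 4500 and 5751 CPM to 2006 and 3117 CPM (LogFC -1.001, SE 0.36, adjusted p = 0.664), and had a LogFC of -0.81 without lacZ replicate 2 and -0.67 without Neurog replicate 1, past the threshold in neither. KH.C7.633 was at 5220 and 4729 CPM in lacZ and 1987 and 3211 CPM in Neurog (LogFC -0.94, SE 0.31, adjusted p = 0.599), and did not pass without lacZ replicate 1 (-0.83) or Neurog replicate 1 (-0.58). For KH.C7.167 the levels were 1565 and 2174 CPM against 755 and 1219 CPM (LogFC -0.92, SE 0.33, adjusted p = 0.663), with -0.66 without lacZ replicate 2 and -0.57 without Neurog replicate 1. KH.L73.3, at 1727 and 1823 CPM in lacZ and 1044 and 1298 CPM in Neurog, lay at the threshold itself (LogFC -0.60, SE 0.23, adjusted p = 0.726) and lost its call in all fits with 1 library left out except that without Neurog replicate 2.

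Fewer genes were all but lost. In their higher Neurog library, 17 of the 219 were at or under 1 CPM and 66 between 1 and 10 CPM, while 102 were between 10 and 100, 29 between 100 and 1000 and 5 above 1000 CPM. KH.L153.77 went from 57.1 and 8.19 CPM in lacZ to 0.109 and 0.0559 CPM in Neurog, which is 1214 counts against 3 over both libraries of each group and a ratio of 360 (95% counting interval 122.8 to 1746). Its lacZ libraries were far apart. It passed the filter through the lacZ libraries alone, which fixes the sign of its difference and the separation of the groups. KH.L144.14 was at 15.1 and 8.36 CPM in lacZ and 0.489 and 0.951 CPM in Neurog (LogFC -4.01, SE 0.56, adjusted p = 0.204). A pair of more abundant genes, chosen after their values were seen, also fell: KH.C7.363 from 699 and 312 CPM to 103 and 81.9 CPM (LogFC -2.45, SE 0.51, adjusted p = 0.395), and KH.C7.455 from 89.0 and 39.8 CPM to 5.06 and 9.06 CPM (LogFC -3.19, SE 0.61, adjusted p = 0.352). These 4 genes kept their calls with each library left out.

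**Figure D4:**
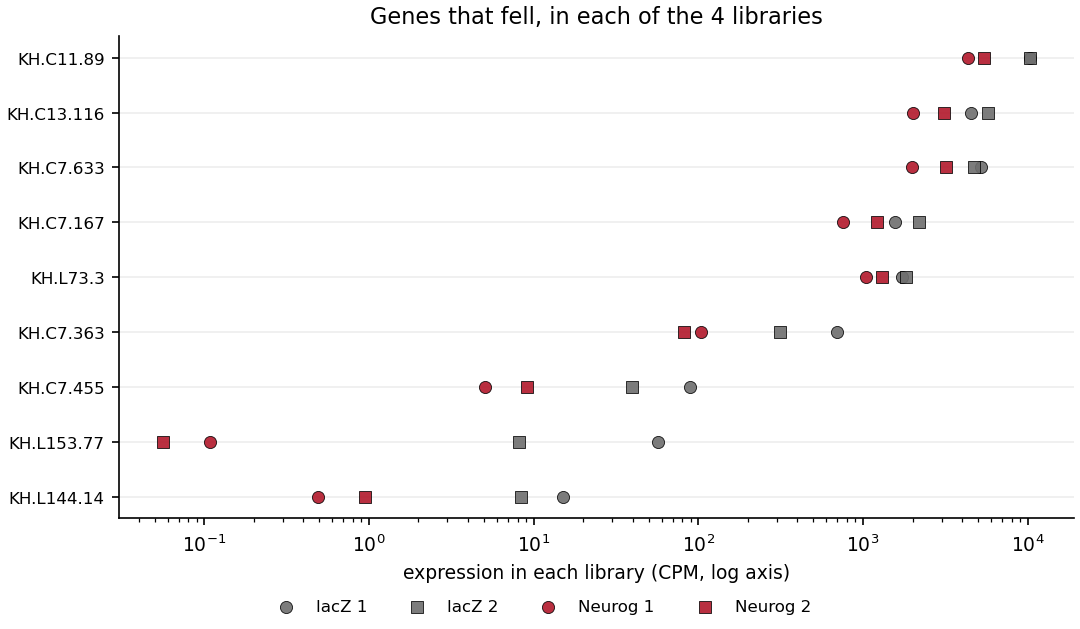
Expression in CPM (log axis) of 9 genes that fell, with 1 row per gene, grey points for lacZ and red points for Neurog, circles for replicate 1 and squares for replicate 2, ordered by mean lacZ expression. Both red points lie to the left of both grey points in every row, with the narrowest gap in KH.C7.167 and the widest in KH.L153.77.

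With 2 libraries against 2, an exact permutation test of a single gene cannot give a p below 0.333, so each p above rests on the spread that edgeR pools over genes and groups.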

How the data were processed

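RNA of sorted cells was amplified with a SMART-seq kit, which does not mark strand, so reads of overlapping or antisense genes cannot be told apart. The values are raw counts as the authors deposited them, 1 column per library. The aligner was STAR 2.5.2b, and featureCounts counted reads per KH gene model over exons, duplicates left out. The assembly version is not given in the sources used here. Replicates were biologically independent by the study's methods.

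Gene models over 1 CPM in at least 2 of the 4 lacZ and Neurog libraries entered a 3-group fit of all 6 libraries with TMM scaling in edgeR 4.0.16 under R 4.3.3 (glmQLFit and glmQLFTest, quasi-likelihood), with a two-sided test of Neurog vs. lacZ and Benjamini-Hochberg adjustment over 11977 genes. CPM are TMM-scaled, the SE is the size of the LogFC divided by the square root of F, and the thresholds (0.6 and 0.05) are those of the study, with -0.6 for genes that fell. The procedure was tested on simulated data. Alternatives were other scalings, tests, filters, thresholds, the replicate block and leaving out each library.

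Function lists match the study's names and human hits. Named genes are *Neurog*, the 3 members of each list with the smallest p in each direction, 8 of the genes that the study's text names, the 5 named genes with the largest LogFC, and, among called genes, the 5 most abundant and the 2 unnamed with the smallest p in each direction. A few others were named after their values were seen. Members and lists were chosen with earlier results of these data known. The fold changes and p-values that the study tabulated were not used. A few genes that this rule would name are not reported here.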

Additional observations from a re-analysis of the deposited data

How the results depend on the processing

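The 534 genes that rose and 219 that fell became 811 and 589 with the replicate block, which keeps 533 and 217 of them, and 168 higher and 11 lower genes then passed an adjusted p of 0.05. Replicate numbers are not said to mark a batch, and there are only 2 of them, so the block was not used elsewhere; over 7970 genes, the difference of replicate 1 from replicate 2 in lacZ had a correlation of 0.57 with that in Neurog. An unadjusted p under 0.01 left 189 and 31 genes, and a LogFC beyond 1 left 119 that fell. With 1 library left out the counts ranged from 231 to 650 and from 97 to 324. The direction of *Slc32a1* (KH.C2.526) turned without Neurog replicate 1 (LogFC -0.73, and 5.90 without lacZ replicate 1). Scaling by DESeq2's size factors, DESeq2, the exact test, 3 other filters and the fit of 4 libraries kept both counts within 1.5 times. A fit that leaves 1 library in a group assumes that it varies like the others. Depth limits genes near 1 CPM, where 3 counts are 0.131 to 0.168 CPM. The causes of these changes were not tested.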
